A study of Mus musculus with 8 samples.

Results

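The immediate early and heat shock genes were 31 genes chosen by name: 9 of the AP-1, Maf and Egr transcription factor families, 15 other immediate early genes and 7 heat shock genes, of 18193 genes measured on the array. All 31 could be read at a probe set annotated to a single gene symbol, and the brightest of these by its mean of the 8 arrays was used for each gene. The choice used no difference between groups, but it was made with earlier results of these data known. Levels are the deposited log2 values, differences are experimental minus control on that scale with the standard error (SE) of the limma fit, and a gene passed at a p of 0.05 or less after Benjamini-Hochberg adjustment over all probe sets. Expression had been measured in cells sorted on Cd11b, an integrin subunit of granulocytes and monocytes, from the bone marrow of 8-week-old mice, whose strain background mixed FVB with C57BL6. The 4 control samples carried the genotype E2F1-/-2+/+3f/f, without E2f1, with intact E2f2 and with floxed E2f3. The 4 experimental samples were Mxcre;E2F1-/-2-/-3f/f, without E2f1 and E2f2, with floxed E2f3 and with a Cre transgene driven by the interferon-responsive Mx promoter. Both groups thus lacked E2f1 and carried floxed E2f3, and every mouse had been given 5 injections of 250 µg of pIpC, which induces interferon, with killing 24 h after the final dose. Cre was present in every experimental sample and in no control. Cre can delete a floxed allele, so E2f3 could be lost in the experimental samples alone. Effects of Cre itself, of the loss of E2f2 and of any loss of E2f3 thus cannot be told apart. The labels do not say that the samples of a group came from separate animals. Sex read from Xist and Eif2s3y differed within each group, so neither group came from a single animal. Whether all samples of a group were separate animals is not known, and where some shared an animal, the p-values here measure technical spread in part.

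Immediate early genes are transcribed within minutes of a stimulus, without new protein synthesis, when MAP kinases activate factors already bound at their promoters. Fos and Jun proteins pair to form AP-1, Egr proteins are zinc finger factors, and several other members, such as the Dusp phosphatases and Zfp36, shut the response down again. Heat shock genes encode chaperones that Hsf1 induces when proteins misfold. Both sets respond to stress during the isolation of cells as well as to signals in the animal, and in myeloid cells the first set also answers growth factors and microbial products.

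Promoter sequences are shown for Atf3, Nr4a1 and Zfp36, the 3 members that fell and whose windows held any of the motifs searched. Ier5 fell too, and its window held none. Ier2 also fell, and no window was found for it. The motifs also stood in members that did not fall, and a link between motif and fall was not tested. The sequences shown are RefSeq windows of GRCm38.p6, each 300 bases long and running 5′ to 3′ from 250 bases before the transcription start to 50 after it. Capitals mark 3 motifs on either strand: TGACG, the core of the cyclic AMP response element (CRE), the Egr site GCGNGGGCG, and the CArG box, which serum response factor binds. The Atf3 window (chr1:191183284-191183583, minus strand) lies at the start of the gene for an AP-1 related repressor. The Nr4a1 window (chr15:101266596-101266895, plus strand) belongs to the orphan nuclear receptor Nur77, and that of Zfp36 (chr7:28379179-28379478, minus strand) to the mRNA decay factor tristetraprolin.
Atf3: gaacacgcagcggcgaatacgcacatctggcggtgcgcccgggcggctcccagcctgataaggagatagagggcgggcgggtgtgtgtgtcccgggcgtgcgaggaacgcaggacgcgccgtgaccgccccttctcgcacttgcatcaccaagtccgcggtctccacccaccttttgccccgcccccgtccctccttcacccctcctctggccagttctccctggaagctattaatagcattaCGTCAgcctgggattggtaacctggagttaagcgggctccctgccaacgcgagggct
Nr4a1: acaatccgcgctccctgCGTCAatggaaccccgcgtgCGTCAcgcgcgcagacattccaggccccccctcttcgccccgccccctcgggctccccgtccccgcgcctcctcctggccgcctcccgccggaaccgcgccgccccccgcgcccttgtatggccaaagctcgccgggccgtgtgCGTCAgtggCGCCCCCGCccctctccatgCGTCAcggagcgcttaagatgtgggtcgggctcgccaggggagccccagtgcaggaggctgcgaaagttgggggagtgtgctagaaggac
Zfp36: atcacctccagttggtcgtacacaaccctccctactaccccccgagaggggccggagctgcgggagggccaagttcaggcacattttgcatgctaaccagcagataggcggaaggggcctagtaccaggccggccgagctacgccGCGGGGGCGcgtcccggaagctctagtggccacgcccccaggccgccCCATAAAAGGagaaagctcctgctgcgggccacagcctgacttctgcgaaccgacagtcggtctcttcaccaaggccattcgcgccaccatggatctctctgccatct
The Nr4a1 window held TGACG 4 times and 1 Egr site, at positions -60 to -52 from the start. The Atf3 window held TGACG at positions -7 to -3, and the Zfp36 window held an Egr site at -105 to -97 and a CArG box at -58 to -49. A window was found for 22 of the 24 immediate early members and 5 of the 7 heat shock members.

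Across those windows, TGACG stood in 15 of 22 immediate early members, against 20.8% of all 32851 windows of this length. The full CRE, TGACGTCA, which contains that core, stood in 3 of 22 (Maff, Dusp1 and Ppp1r15a) against 1.79% of all windows. Egr sites stood in 9 of 22 against 5.55%, and CArG boxes in 3 of 22 (Egr2, Zfp36 and Dusp5) against 1.63%. Several members have more than 1 window and were counted once if any held the letters. The background is a share of single windows, so these members had more room for a match than it allows for. The AP-1 site TGANTCA stood in 1 of 22, Csrnp1, against 7.81%. E2F sites, searched as TTTCGCGC, TTTGGCGC, TTTCCCGC and TTTGCCGC on both strands, stood in 0 of the 27 member genes with a window, against 2.26% of all windows. At so low a share a count of 0 does not set the members apart, and other spellings of the site were not searched. A match describes letters and not binding, and the absence of one concerns only this window.

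Most immediate early members had lower levels in the experimental samples. Of 24, 5 fell and none rose by limma at an adjusted p of 0.05, where 1.95% of all genes fell and 1.53% rose. The 5 were Atf3, Ier2, Ier5, Nr4a1 and Zfp36, by 1.45-fold to 1.87-fold. In 20 of 24 the difference was below 0, as in 47.1% of all genes, and the median log2 difference was -0.41, against 0.01 over all genes. With the replicate number as a block, 9 fell and Ppp1r15a rose, where 3.02% of all genes fell and 3.16% rose. With the style of the sample codes as a block, which separates replicates 1 and 2 from replicates 3 and 4, 7 fell, against 3.48% of all genes. Of the heat shock members none of 7 passed in either direction, and none passed with either block. At an unadjusted p under 0.05, 12 of the 24 immediate early members were lower and 1 higher, and 0 of the 7 heat shock members were either, where 9.8% of all genes were lower and 9.08% higher.

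**Figure D1:**
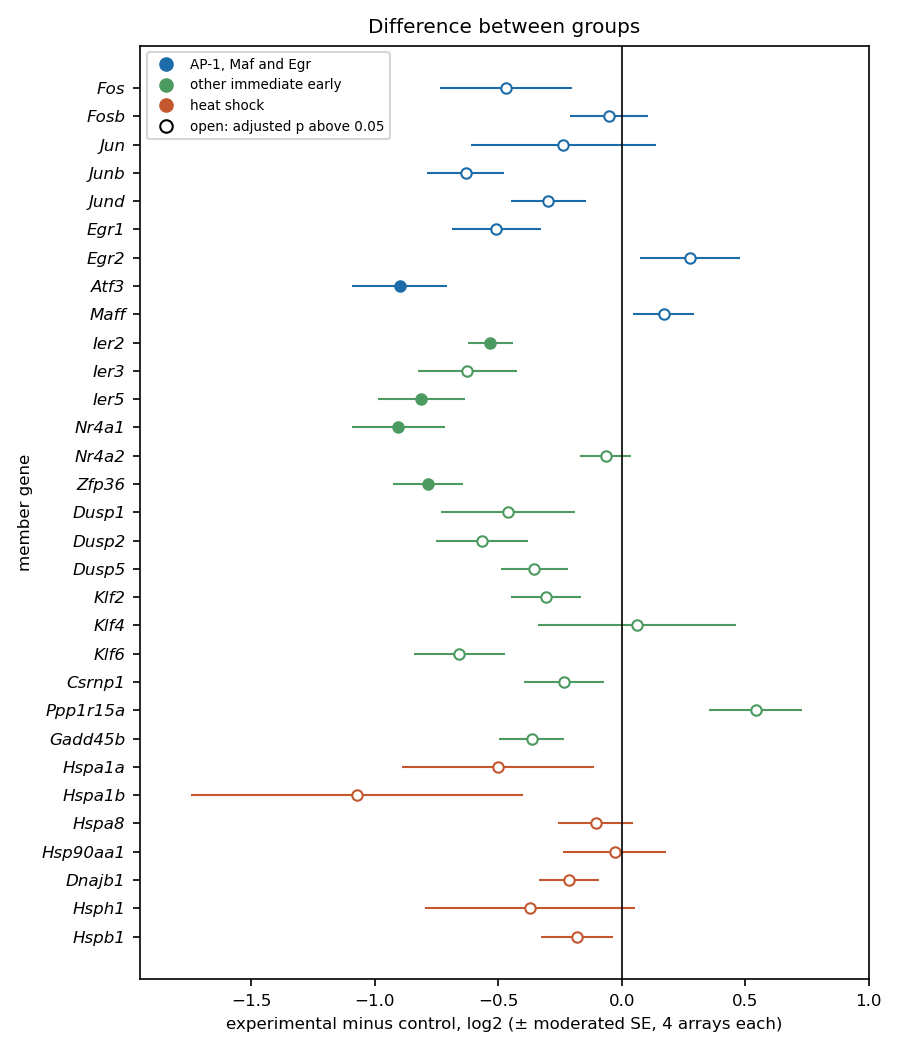
Experimental minus control on the log2 scale for the 31 members (points, with moderated standard errors as bars, 4 arrays per group), coloured by family; filled points passed an adjusted p of 0.05. The 5 filled points lie between -0.90 and -0.53, and Hspa1b, at -1.07, has the widest bar.

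The number of calls depended on single arrays, as did the share of all genes that fell. Without control replicates 1, 2, 3 or 4 in turn, 2, 1, 2 and 0 immediate early members fell, where 0.835%, 0.742%, 1.21% and 0.72% of all genes did. Without experimental replicates 1, 2, 3 or 4 in turn, 1, 7, 3 and 0 fell, where 1.04%, 2.52%, 1.31% and 1.04% of all genes did. With replicates 1 and 2 alone 0 fell (0.225% of all genes), and with replicates 3 and 4 alone 1 fell (0.583%). With sex as a block, read from Xist and Eif2s3y, 1 fell (1.1%), and by those genes 2 controls and 1 experimental sample were male. With all arrays and no block, quantile normalization ended the call of Atf3 (limma adjusted p = 0.0526; 0.0283 to 0.135 over all alternatives). Median centring ended the calls of Atf3 (0.0515) and Ier5 (0.0509; 0.00559 to 0.165 over all alternatives).

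**Figure D2:**
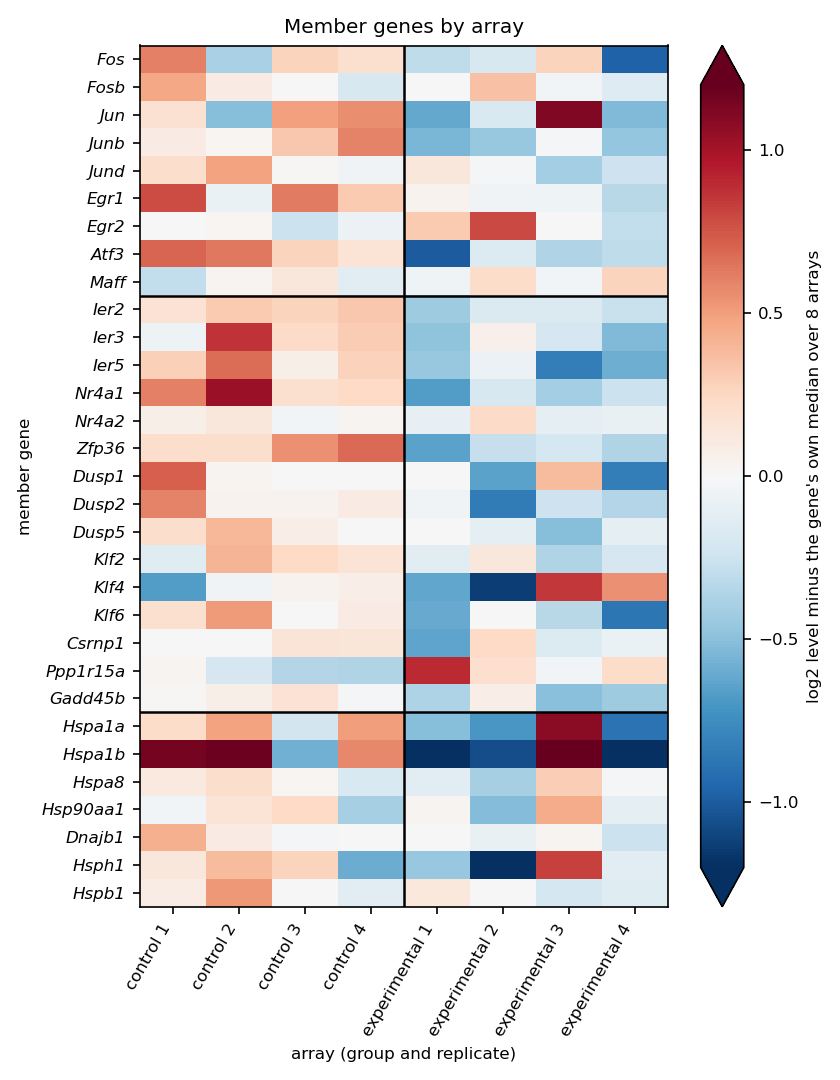
Log2 level of each member in each array minus its own median over the 8 arrays (colour, in log2 units; rows are genes, with lines between the 3 families, and columns are arrays). Immediate early rows are mostly red in the controls and blue in the experimental arrays, while 6 of the 7 heat shock rows are red in experimental replicate 3.

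By array, 17 to 19 of the 24 immediate early members lay above their own median in the controls and 3 to 9 in the experimental samples. Experimental replicate 4 had the fewest, 3, and experimental replicate 2 the most of its group, 9. For the heat shock members the counts were 6, 7, 4 and 3 of 7 in control replicates 1 to 4 and 2, 0, 6 and 0 in experimental replicates 1 to 4. The groups did not overlap in the first count and overlapped in the second.

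Fos and Jun, the founding subunits of AP-1, did not pass. Fos spanned 10.11 to 11.11 in controls and 9.53 to 10.77 in experimental samples (difference -0.47 ± 0.27 SE, n = 4 per group, limma adjusted p = 0.419; 95% interval -1.07 to 0.13). Jun spanned 7.03 to 8.10 and 6.92 to 8.65, with its highest value in experimental replicate 3 (difference -0.24 ± 0.38, interval -1.08 to 0.61). The groups overlapped in both genes, and these intervals hold sizes that passed in other members.

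Junb, an AP-1 subunit with weaker transforming activity than Jun, read 8.57, 8.49, 8.79 and 9.06 in control replicates 1 to 4 and 7.92, 8.01, 8.44 and 8.01 in experimental replicates 1 to 4. All experimental arrays lay below all controls. The difference was -0.63 ± 0.16 (SE, 1.55-fold), with a limma adjusted p of 0.0684, 0.0374 with the replicate block and 0.0163 to 0.158 over all alternatives. Jund, the subunit found in resting cells, had a smaller difference (-0.30 ± 0.15, adjusted p = 0.364) with overlapping groups. Fosb read 3.15 to 3.80 in all arrays, below the array medians of 5.01 to 5.04.

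Egr1, a zinc finger factor that Fos-inducing signals also induce, read 6.31, 5.44, 6.14 and 5.84 in control replicates 1 to 4 and 5.56, 5.48, 5.47 and 5.19 in experimental replicates 1 to 4. Control replicate 2 lay among the experimental arrays, and the other controls lay above them all. The difference was -0.51 ± 0.18 (SE, n = 4 per group) and did not pass by limma (adjusted p = 0.181). Egr2, a factor of macrophage differentiation, had a difference of 0.28 ± 0.20, with a highest value of 4.37 in experimental replicate 2, and its levels were low in every array.

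Atf3 (probe set 1449363_at), a stress-induced repressor, fell. It read 6.64, 6.57, 6.21 and 6.11 in control replicates 1 to 4 and 4.95, 5.78, 5.58 and 5.64 in experimental replicates 1 to 4. The groups did not overlap, and experimental replicate 1 was the lowest. The difference was -0.90 ± 0.19 (SE, 1.86-fold, limma adjusted p = 0.0426). Without 1 array it passed in 1 of 8 fits, the fit without experimental replicate 2 (adjusted p = 0.0317 to 0.135). Maff, a small Maf protein that pairs with other basic leucine zipper factors, had a difference of 0.17 ± 0.12 that did not pass. Over the 9 AP-1, Maf and Egr members the median difference was -0.30, with 7 below 0.

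**Figure D3:**
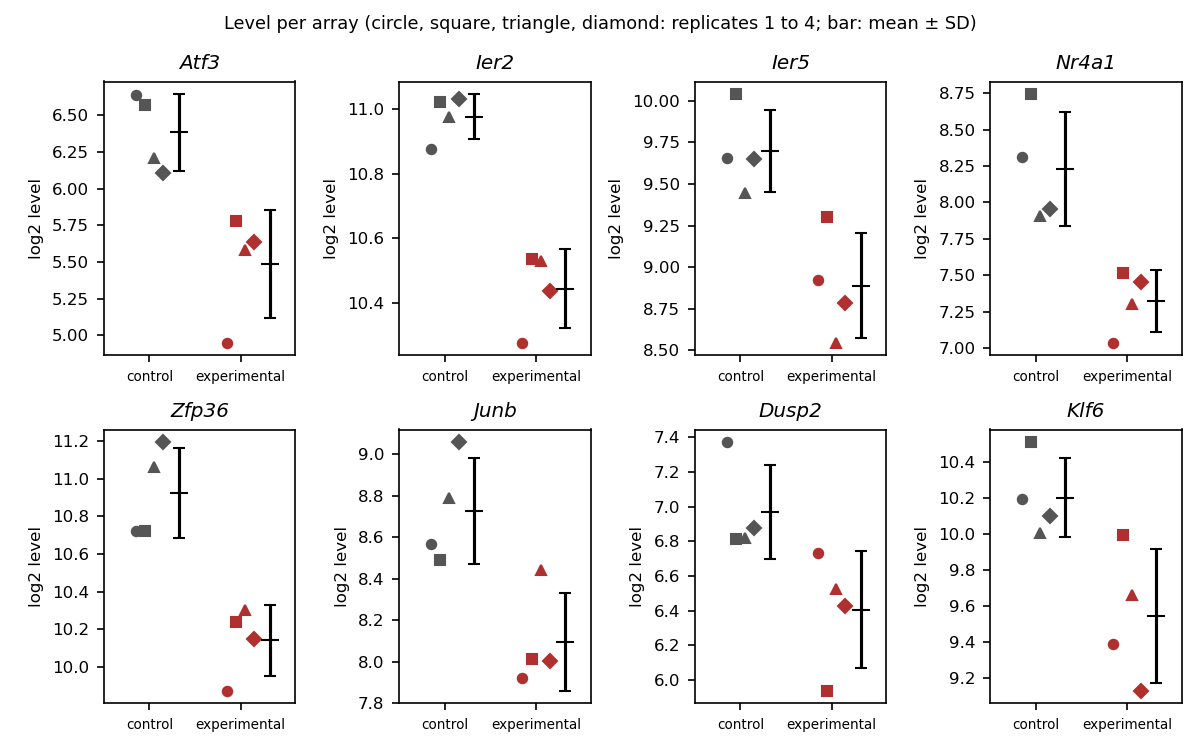
Log2 level per array of the 8 members whose experimental arrays (red) all lay below the controls (grey); symbols give the replicate and bars the mean ± SD (n = 4 per group). Atf3, Ier2, Ier5, Nr4a1 and Zfp36 passed the test, and Junb, Dusp2 and Klf6 did not; each panel has its own axis, which does not start at 0.

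Of 24 immediate early members, 8 had all experimental arrays below all controls, against 6.79% of all genes, and 0 had them all above, against 5.62%. Nr4a1 (1416505_at), a nuclear receptor that antigen receptor signals also induce, fell. Control replicates 1 to 4 read 8.31, 8.74, 7.91 and 7.95, and experimental replicates 1 to 4 read 7.04, 7.52, 7.30 and 7.45. All experimental arrays were lower, by -0.90 ± 0.19 (SE, 1.87-fold, limma adjusted p = 0.0390), and 2 of 8 fits without an array passed, those without control replicate 3 or experimental replicate 2. The difference was -1.25 in replicates 1 and 2 and -0.55 in replicates 3 and 4. Its relative Nr4a2 had a difference of -0.06 ± 0.10 at its brightest probe set (adjusted p = 0.805), while its 5 other probe sets, all with control means below 5.5, differed by 0.06 to 0.80 in the opposite direction, and none of its probe sets passed.

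Zfp36 (1452519_a_at), which encodes the protein that destroys mRNAs such as that of Tnf, fell. Its levels were 10.72, 10.72, 11.06 and 11.19 in control replicates 1 to 4 and 9.87, 10.24, 10.31 and 10.15 in experimental replicates 1 to 4, without overlap. The difference of -0.78 ± 0.14 (SE, 1.72-fold, limma adjusted p = 0.0233) passed in 4 of 8 fits that leave out an array (adjusted p = 0.0278 to 0.0689). Within replicates 1 and 2 it was -0.67 and within replicates 3 and 4 -0.90.

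Of the Ier genes, named as immediate early response genes, Ier2 and Ier5 fell. Ier2 (1416442_at), a nuclear protein of the growth factor response, read 10.88, 11.02, 10.98 and 11.03 in control replicates 1 to 4 and 10.28, 10.54, 10.53 and 10.44 in experimental replicates 1 to 4. Its spread within a group was the smallest among the 5 that fell, and the groups were apart. The difference was -0.53 ± 0.09 (SE, 1.45-fold, limma adjusted p = 0.0208), and it passed in 5 of 8 fits without an array (0.0241 to 0.0715).

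Ier5 (1417612_at), a relative that binds Hsf1, read 9.66, 10.04, 9.45 and 9.65 in control replicates 1 to 4 and 8.92, 9.30, 8.54 and 8.79 in experimental replicates 1 to 4. Again every experimental array was below every control. The difference was -0.81 ± 0.17 (SE, 1.75-fold, limma adjusted p = 0.0432; 0.0187 to 0.122 without an array, passing only without experimental replicate 2). A dimmer probe set of Ier5 fell as well, from 5.32 ± 0.25 to 4.27 ± 0.16 (SD, n = 4 each), a difference of -1.05 ± 0.14 (SE, limma adjusted p = 0.0075). Of the 30 other probe sets of the members it alone passed, where 1.62% of all other probe sets of genes fell.

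Ier3, an NF-kappaB target that regulates cell survival, read 8.53, 9.47, 8.82 and 8.90 in control replicates 1 to 4 and 8.11, 8.66, 8.39 and 8.07 in experimental replicates 1 to 4. Experimental replicate 2 exceeded control replicate 1, so the groups overlapped. The difference was -0.62 ± 0.20 (SE), with a limma adjusted p of 0.146, 0.0251 with the replicate block and 0.0251 to 0.416 over all alternatives.

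The Dusp phosphatases remove phosphate from MAP kinases and so end the signal that induces the other members. Dusp2, a nuclear phosphatase of immune cells, read 7.37, 6.81, 6.82 and 6.87 in control replicates 1 to 4 and 6.73, 5.94, 6.52 and 6.42 in experimental replicates 1 to 4. The groups did not overlap, though the gap was small beside the spread. The difference was -0.57 ± 0.19 (SE, limma adjusted p = 0.153; 0.0384 with the block and 0.0384 to 0.312 over all alternatives). Dusp1, which acts on p38 and JNK, had a difference of -0.46 ± 0.27 with a control of 10.81 and an experimental array of 10.47 standing above the rest of their groups. Dusp5, which acts on ERK, differed by -0.35 ± 0.13 (adjusted p = 0.213).

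Klf factors are zinc finger proteins that shape quiescence and myeloid identity. Klf6 read 10.19, 10.51, 10.005 and 10.10 in control replicates 1 to 4 and 9.39, 9.995, 9.66 and 9.13 in experimental replicates 1 to 4. Experimental replicate 2 came close to control replicate 3, and the groups did not overlap. The difference was -0.66 ± 0.19 (SE, 1.58-fold, limma adjusted p = 0.103; 0.0284 with the block and 0.0284 to 0.26 over all alternatives). Its 4 other probe sets differed by -0.51 to -0.39, and none of them passed. Klf2, a factor of quiescent lymphocytes and monocytes, differed by -0.31 ± 0.14 with overlap.

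Klf4 promotes monocyte differentiation. In replicates 1 and 2 it read 8.44 and 9.07 in controls and 8.49 and 7.99 in experimental samples, and in replicates 3 and 4 it read 9.16 and 9.19 in controls and 9.96 and 9.67 in experimental samples. The difference was thus -0.52 in the first set and 0.64 in the second, and 0.06 ± 0.40 (SE) over all arrays. The test of the difference between the sets had an unadjusted p of 0.00745 and an adjusted p of 0.473 by limma. Over 15 of 16 monocyte and macrophage markers measured, the median difference also changed sign, from -0.73 in replicates 1 and 2 to 0.45 in replicates 3 and 4, and its part in the values of Klf4 was not tested.

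The remaining immediate early members were Ppp1r15a, Gadd45b and Csrnp1. Ppp1r15a, which encodes GADD34, a subunit that lets translation resume after stress, was the 1 immediate early member of 24 with a difference of 0.5 or higher, as 4.61% of all genes had. It read 7.79, 7.56, 7.41 and 7.40 in control replicates 1 to 4 and 8.65, 7.96, 7.73 and 7.98 in experimental replicates 1 to 4. Experimental replicate 3 lay just below control replicate 1, and the other experimental arrays lay above all controls. The difference was 0.54 ± 0.19 (SE, limma adjusted p = 0.173), and it rose with the replicate block (0.0408; 0.0408 to 0.342 over all alternatives). Gadd45b, an activator of p38 signalling, differed by -0.36 ± 0.13 (adjusted p = 0.191), and passed only without experimental replicate 2 (0.0280; 0.028 to 0.661 over all alternatives). Csrnp1, a nuclear protein induced by axin, differed by -0.23 ± 0.16.

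The inducible Hsp70 genes Hspa1a and Hspa1b lie close together on chromosome 17, and their windows differ at 4 of 300 bases, so they are shown to make plain how alike the pair is; capitals mark the bases that differ (chr17:34972107-34972406, minus strand for Hspa1a and chr17:34959189-34959488, minus strand for Hspa1b, both GRCm38.p6 from RefSeq, 5′ to 3′).
Hspa1a: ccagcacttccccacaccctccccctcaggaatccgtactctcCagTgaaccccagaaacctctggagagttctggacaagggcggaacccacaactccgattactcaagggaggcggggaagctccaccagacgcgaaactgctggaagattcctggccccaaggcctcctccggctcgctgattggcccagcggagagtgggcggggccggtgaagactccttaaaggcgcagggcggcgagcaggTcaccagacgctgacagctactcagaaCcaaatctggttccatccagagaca
Hspa1b: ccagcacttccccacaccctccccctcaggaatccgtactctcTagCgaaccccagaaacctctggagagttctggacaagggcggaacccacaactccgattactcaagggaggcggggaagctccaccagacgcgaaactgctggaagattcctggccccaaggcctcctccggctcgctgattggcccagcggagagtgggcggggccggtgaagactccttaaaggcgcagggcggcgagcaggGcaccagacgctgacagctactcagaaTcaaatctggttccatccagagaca
Their transcripts are near copies as well, and the probe sets may not tell them apart. Each window held 1 inverted pair of GAA units, searched as GAANNTTC and TTCNNGAA, a form that 15.1% of all windows hold and that stood in 4 of 5 heat shock members with a window and 2 of 22 immediate early members. The heat shock element of 3 alternating GAA and TTC units with 2 bases between them, which contains such pairs, stood only in Hsph1 of the 27 genes, against 0.603% of all windows.

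Hspa1b read 7.61, 7.64, 5.88 and 7.04 in control replicates 1 to 4 and 5.20, 5.40, 8.20 and 5.10 in experimental replicates 1 to 4. Experimental replicate 3 was the highest of all 8 arrays, while the other 3 experimental arrays lay below every control. The difference was -1.07 ± 0.67 (SE, limma adjusted p = 0.465), the largest in size and in error of the 31. Without experimental replicate 3 it was -1.81 ± 0.38 (adjusted p = 0.0508; 0.0219 to 0.954 over all alternatives). Experimental replicate 3 was also the highest at its 2 other probe sets, with 8.08 and 8.15 in experimental replicate 3 and 4.24 to 5.04 in the other experimental arrays.

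Hspa1a read 5.59, 5.85, 5.14 and 5.87 in control replicates 1 to 4 and 4.85, 4.67, 6.45 and 4.48 in experimental replicates 1 to 4. The same array stood out, and the other 3 experimental arrays again lay below all controls. The difference was -0.50 ± 0.39 (SE, limma adjusted p = 0.564), and without experimental replicate 3 it was -0.95 ± 0.18 and passed (adjusted p = 0.0426; 0.0426 to 0.987 over all alternatives).

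**Figure D4:**
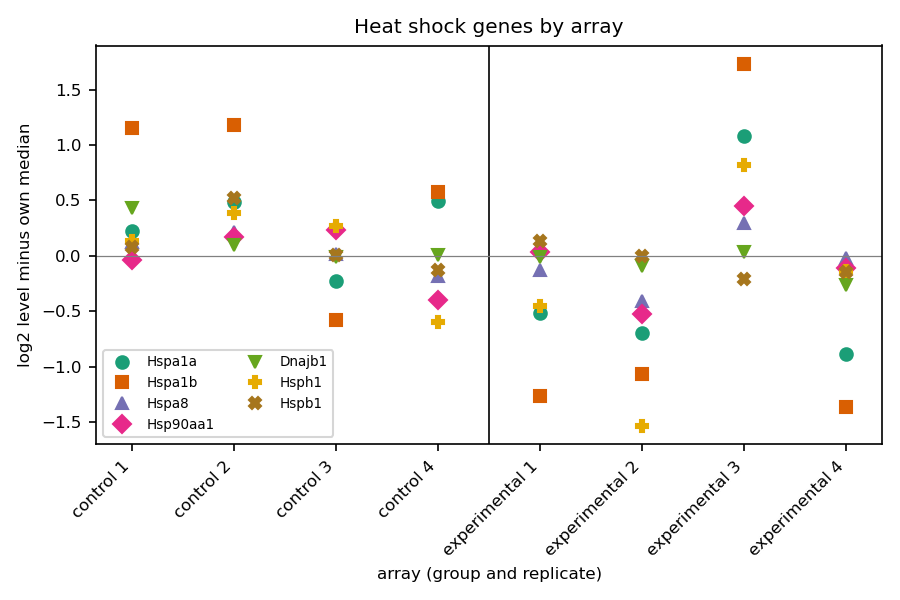
Log2 level of the 7 heat shock members in each array minus the gene's own median over the 8 arrays; each symbol is a gene. Experimental replicate 3 lies above 0 for 6 of 7 genes, and the other experimental arrays lie mostly at or below 0.

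Hspa8, the constitutive Hsp70 of every cell, read 12.71, 12.80, 12.61 and 12.40 in control replicates 1 to 4 and 12.46, 12.18, 12.88 and 12.57 in experimental replicates 1 to 4. The difference was -0.11 ± 0.15 (SE, limma adjusted p = 0.781; 95% interval -0.44 to 0.23). Experimental replicate 3 was again the highest and experimental replicate 2 the lowest, with the groups overlapping.

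Hsp90aa1, the inducible Hsp90, read 11.25, 11.46, 11.53 and 10.89 in control replicates 1 to 4 and 11.32, 10.77, 11.74 and 11.18 in experimental replicates 1 to 4 (difference -0.03 ± 0.21, interval -0.49 to 0.44). Dnajb1, the Hsp40 that brings substrates to Hsp70, read 10.53, 10.20, 10.09 and 10.11 and then 10.09, 10.01, 10.14 and 9.84 (difference -0.21 ± 0.12, interval -0.48 to 0.06). The groups overlapped in both, with experimental replicate 3 the highest of 8 in Hsp90aa1 and not in Dnajb1. Hsph1, a nucleotide exchange factor of Hsp70, ranged from 7.50 in experimental replicate 2 to 9.85 in experimental replicate 3, which spans the controls at 8.43 to 9.42. Hspb1, a small heat shock protein, differed by -0.18 ± 0.15.

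In all, 5 of the 7 heat shock members had their highest value in experimental replicate 3, as did 15.3% of all genes. The same array had the highest value for 2 of the 24 immediate early members and the lowest for 6, where it held the lowest for 15.7% of all genes. Experimental replicates 1 and 4 held the lowest value for 7 and 6 immediate early members, and for 17% and 8.42% of all genes. Heat shock members had a median difference of -0.43 in replicates 1 and 2 and of 0.19 in replicates 3 and 4, while the immediate early members had -0.36 and -0.43. None of the 31 passed the test of a difference between these sets of replicates by limma, where 2 of 18193 genes did (0.011%). The unadjusted p was under 0.05 for 2 heat shock members, Hspa8 and Hsph1, and for 2 immediate early members, Klf4 and Nr4a1, and for 8.06% of all genes. Within the sets, 4 of 7 heat shock members and 2 of 24 immediate early members had differences of opposite sign, as did 38% of all genes.

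**Figure D5:**
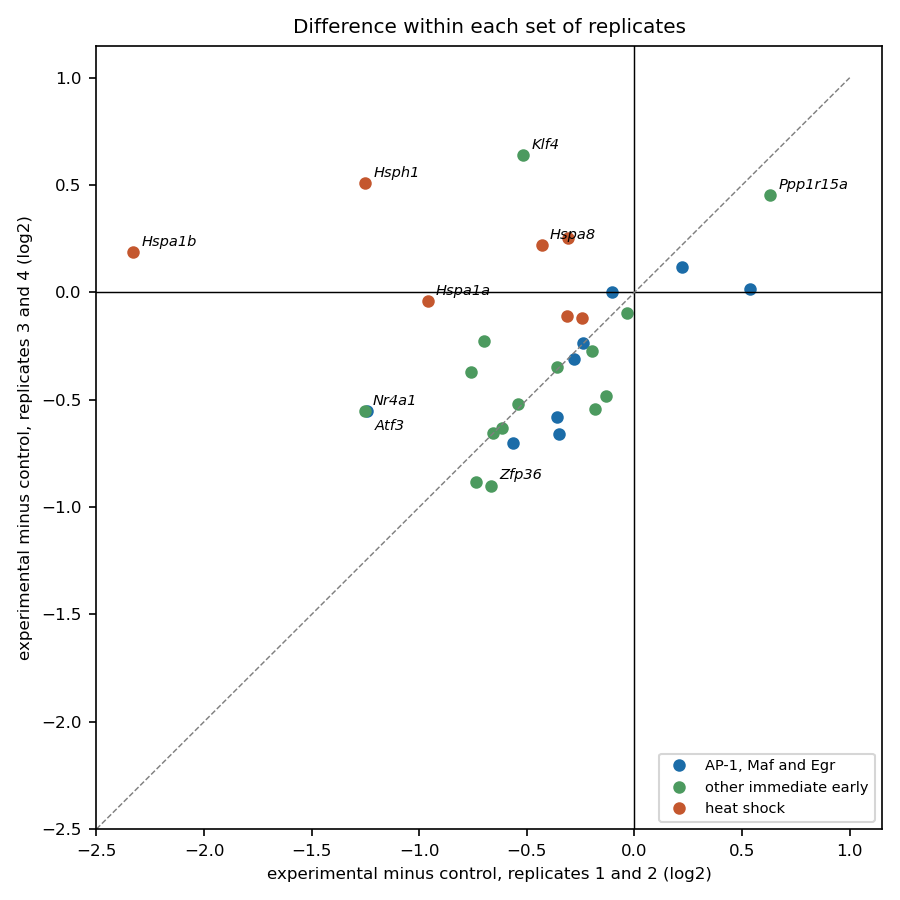
Difference between groups (log2, experimental minus control) within replicates 1 and 2 (horizontal axis) and within replicates 3 and 4 (vertical axis), 2 arrays per group in each; points are members, coloured by family, and the dashed line marks equal differences. Most immediate early genes lie below 0 on both axes, and Hspa1b, Hsph1, Hspa8, Hsp90aa1 and Klf4 lie at the upper left.

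Other genes of these pathways were read from 6 lists chosen by function. Of 114 measured, 3 fell and none rose, and at an unadjusted p under 0.05, the counts were 19 lower and 2 higher. The shares of all genes at both thresholds are those given above. Of 18 MAP kinases and upstream factors, Creb1, which encodes the factor that binds CRE, fell (-0.42 ± 0.09 SE, n = 4 per group, limma adjusted p = 0.0446). Its arrays read 9.54 to 9.84 in controls and 9.26 to 9.31 in experimental samples, without overlap, and it passed in 1 of 8 fits that leave out an array. Of 13 feedback genes of the MAP kinases, Dusp16, a JNK phosphatase, fell (-1.35 ± 0.18, adjusted p = 0.00787), in all 8 such fits. Of 24 other early response genes, Trib1, a pseudokinase that controls C/EBP proteins, fell (-0.78 ± 0.12, adjusted p = 0.0143), in 7 of them. With the replicate block 6 of the 114 fell and Bag3, a partner of Hsp70, rose.

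Among 17 other genes of the AP-1, Maf and Egr families none passed, and the 2 brightest, Fosl2 and Mafg, differed by -0.34 ± 0.13 and -0.30 ± 0.10 (SE). The median of this list was 0.02, of the 24 other early response genes -0.07 and of the 24 Hsf factors and cytosolic chaperones -0.04. In the last list none passed either, with Dnaja1, an Hsp40, at -0.25 ± 0.18 and Dnaja2 at -0.12 ± 0.09. Chaperones of mitochondria and endoplasmic reticulum had a median of 0.23 and none of 18 passed. Calr, a lectin chaperone, was at 0.39 ± 0.34 and Hspa5, the Hsp70 of the endoplasmic reticulum, at 0.06 ± 0.19.

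Some markers of other cells differed between the groups. Of 13 B cell markers measured, 7 fell, with a median of -1.31, and Cd79a, part of the B cell receptor, fell by 1.57 ± 0.16 (SE) on the log2 scale. The log2 of their summed level was 13.10 to 13.45 in controls and 12.76 to 13.90 in experimental samples. That sum is carried by the 2 brightest probe sets, Ighm and Cd37, whose groups overlapped, while 10 of the 13 markers had all experimental arrays below all controls. Of 8 platelet and megakaryocyte markers of 9, 3 fell, with summed levels of 9.44 to 10.04 and 8.83 to 8.998, and of 12 dendritic cell markers 3 fell (12.12 to 13.09 and 11.37 to 12.26). Of 8 eosinophil, basophil and mast cell markers of 9, 2 rose, Epx and Siglecf (10.83 to 11.34 and 10.58 to 11.27). That list went both ways, with a median of -0.18 and 5 of 8 differences below 0. At an unadjusted p under 0.05 by limma, 2 of its markers were lower and 2 higher. All experimental arrays lay below all controls in Ms4a2 (-0.77 ± 0.18 SE) and Kit (-0.39 ± 0.10), and above them in Epx and Siglecf. No marker of T and NK cells (11 measured), red cells (8) or monocytes (15) passed, and their summed levels overlapped. With the replicate block 3 T and NK markers rose, Il2rb (limma adjusted p = 0.0276), Nkg7 (0.0343) and Cd247 (0.0448), and so did Alas2 of the red cells (0.0342). Cd3g, Cd247 and Nkg7 had all experimental arrays above all controls. Of the 15 monocyte and macrophage markers, 10 differences were below 0, and 3 were lower and 0 higher at an unadjusted p under 0.05 by limma. In 2 of them, Cx3cr1 (-1.23 ± 0.42 SE) and Mpeg1 (-0.37 ± 0.13), all experimental arrays lay below all controls, against 6.79% of all genes. With the block the lower calls were 8 of 13 for B cells, 4 of 8 for platelets and 5 of 12 for dendritic cells. In bulk samples fewer cells of a type and less RNA per cell cannot be told apart, and the part of these cells in the immediate early values was not tested.

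Itgam, which encodes the sort marker Cd11b, had levels of 11.58 ± 0.07 (SD, n = 4) in controls and 11.54 ± 0.27 (n = 4) in the other group. Of 11 neutrophil markers only Csf3r passed, lower (-0.65 ± 0.09 SE). All 11 differences were below 0, as were 47.1% of all genes. Several lay near the highest level of any probe set (14.36 to 14.54 by array), such as S100a9, with means of 14.49 in controls and 14.43 in experimental samples. E2f2 fell at 1 of its 2 probe sets, from 7.92 ± 0.19 to 7.26 ± 0.21 (SD, n = 4 each; difference -0.66 ± 0.13 SE, limma adjusted p = 0.0351). Its brighter probe set read 9.85 ± 0.28 and 9.31 ± 0.21 and did not pass (-0.55 ± 0.16, adjusted p = 0.107). Both thus stayed above the array medians in the samples labelled as lacking E2f2. Probe sets of E2f1 and E2f3 did not pass, and where the probes of any of the 3 genes lie against the deleted exons was not analysed here. The actin probe sets that gauge RNA integrity gave a 3' to 5' log2 ratio of 0.30 ± 0.02 (SD, n = 4) in controls and 0.44 ± 0.08 (n = 4) in the other group, with no overlap of the groups (two-sided exact permutation p = 0.0286, the smallest this design allows, and 0.0571 adjusted over both ratios). For Gapdh the ratio was -0.12 ± 0.02 in controls and -0.09 ± 0.08 in experimental samples, with overlap (exact permutation p = 0.743). The part of RNA integrity in the lower immediate early values was not tested.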

How the data were processed

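RNA of 8 sorted samples (4 per group, groups from the sample titles) was hybridised to an Affymetrix mouse array, 2.5 µg each per the labels' protocols. The deposited values are on the log2 scale per probe set, made by RMA per the submitters' processing notes, with version and joint normalization not given in the sources used here; RMA makes array medians alike. The array's 64 control probe sets were dropped, and the test covered the other 45037. Of these, 34945 had 1 gene symbol, 932 several and 9160 none. Each of 18193 genes was read at its brightest probe set. The fit used lmFit and eBayes of limma 3.58.1 (R 4.3.3) with group as its term, with Benjamini-Hochberg adjustment over all probe sets and a threshold of 0.05, tested on simulated data.

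Members and lists were chosen with earlier results of these data known. Values per array are given for members that passed, did not overlap or differed by at least 0.5, and for the 3 brightest heat shock members; of other lists, up to 4 genes that passed with the smallest p, or the 2 brightest. Array values of Klf4, Hsph1 and other members beyond this rule, Bag3, and the markers named with the replicate block or by overlap were chosen after their values were seen. Same-numbered arrays of the 2 groups deviated together (correlations of 0.20 to 0.26 for the 4 pairs), which met the rule for pairs, and the number entered as a block in an alternative, not in the reported p-values. Sample codes of 2 styles separate replicates 1 and 2 from 3 and 4. Arrays of other number and the same style correlated at 0.14 to 0.26, close to the same-number pairs, while those that differed in style gave -0.27 to -0.13. Alternatives were other normalization, filters on dim probe sets, variance models, array weights, blocks, other probe set choices and fewer arrays. The number of arrays limits the precision. No 2 arrays held identical values.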

Additional observations from a re-analysis of the deposited data

Results flagged for a closer look

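Of 62 sets of 4 arrays (31 members in 2 groups), 5 held an array far from the other 3. In these the gap to the nearest array was 0.84 to 0.96 of the range of the set. A chance rate of about 1 in 20 takes the sets as independent. All sets come from the same 8 arrays, so the count cannot be set against that rate. Hspa1b stood at 8.20 in experimental replicate 3, where the nearest array of its group was 5.40. Dusp1 stood at 10.81 in control replicate 1, with the nearest at 10.12, and Dusp2 at 7.37 in the same array, with the nearest at 6.87. Klf4 stood at 8.44 in that array too, below the nearest at 9.07. Nr4a2 stood at 5.97 in experimental replicate 2, with the nearest at 5.65.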

How the results depend on the processing

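Of the recomputed member values, 562 kept direction and call, 14 newly passed, 43 no longer passed and 23 changed sign. Leaving out 1 array in turn, the number of immediate early members that fell was 0 to 7 (against 5), that of heat shock members that passed 0 to 1 (Hspa1a, without experimental replicate 3), that of the 114 related genes 1 to 6 lower and 0 to 4 higher, and that of members with all experimental arrays above all controls 0 to 1. The extremes of the related genes were 1 lower without control replicate 4 and 6 lower and 4 higher without experimental replicate 2. Of all 45037 probe sets, 219 were lower without control replicate 4, and 978 were lower and 766 higher without experimental replicate 2. The share of all genes with separated groups was not computed with 1 array left out, so the count of 0 to 1 does not set the members apart. The median of AP-1, Maf and Egr members was -0.52 to -0.25 in these fits. Signs turned in Fosb (-0.15 to 0.0737), Klf4 (-0.25 to 0.41), Hspa8 (-0.23 to 0.0079), Hsp90aa1 (-0.19 to 0.13) and Hsph1 (-0.75 to 0.0307).

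With the replicate block, 9 immediate early members were lower and 1 higher, and 6 related genes were lower and 1 higher; the block changed no other call of a member. With code style as a block, 5 related genes were lower and 1 higher, and with array weights 5 were lower. Of all 45037 probe sets, 1446 were lower and 1136 higher with code style as a block, and 907 were lower with array weights. Median centring left 3 immediate early members lower and inferred sex as a block 1. Over all probe sets, 588 were lower with median centring and 370 with inferred sex as a block, against 696 in the main fit. The block for sex turned Fosb (0.0322) and Klf4 (-0.13). Array weights turned Hsp90aa1 (0.0555). Within replicates 1 and 2, 0 immediate early members, 1 heat shock member (Hspa1b) and 1 related gene passed, 16 members had all experimental arrays below and 2 above, and Klf4 was at -0.52. Within replicates 3 and 4, 1 immediate early member passed, with 0 related genes lower and 1 higher, and 17 members were all below and 2 all above. In the same replicates the median of heat shock members was 0.19, and Fosb (0.0028), Hspa1b (0.19), Hspa8 (0.22), Hsp90aa1 (0.25) and Hsph1 (0.51) were above 0. With 2 arrays per group, full separation arises by chance more often than with 4. The shares of all genes given for separated groups are for 4 arrays per group. The share within either set of replicates was not computed, so the counts of 16 and 17 do not set the members apart from other genes. Averaging the probe sets of each gene, 5 related genes were lower, 1 member was all above, the AP-1, Maf and Egr median was -0.13 and Nr4a2 was at 0.27. With the most variable probe set Nr4a2 was at 0.80, Klf4 at -0.0085 and Hspa8 at 0.0837. Among probe sets above the median level the AP-1, Maf and Egr median was -0.47. The causes were not tested, beyond the fewer arrays or probe sets that a setting uses.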
